A study of Mus musculus with 6 samples.

Results

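The 44 genes described here encode the proteins that copy DNA and supply its nucleotides, and they were chosen by name and not by a threshold on a measured value. They are 6 subunits of the MCM helicase, 6 genes of origin recognition and licensing, 5 of helicase activation, 8 of primase and the polymerases, 6 of the sliding clamp and its loader, 3 of single-strand binding, 2 of flap cleavage and ligation, 6 of nucleotide synthesis and 2 of histone deposition. Of 18194 genes with a probe set on the array, 43 were among the 44, as no probe set matched Chaf1a, which is not analysed here. Each gene was read from its brightest probe set, and 42 of the 44 passed the intensity filter and were tested among 12152 genes.

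Expression was measured in luminal mammary epithelial cells of adult virgin female mice of a mixed B6/129/FVB background. The 3 Runx1-null mice were MMTV-Cre;Runx1L/L;R26Y and the 3 Runx1-WT mice were MMTV-Cre;Runx1+/+;R26Y, so both groups carried the Cre transgene and the YFP reporter. MMTV-Cre drives Cre from the mouse mammary tumor virus promoter, which acts mainly in the luminal lineage, in part of its cells, and in some basal cells, Runx1L is the floxed allele, and R26Y turns on YFP in a cell once Cre has acted. YFP+ Lin-CD24+CD29lo cells of each mouse were sorted, their RNA was amplified, and each mouse gave 1 array. The values are array intensities on a linear scale that the authors normalized with dChip, and they are given below in the order of mice 1, 2 and 3 of each genotype. Differences are Runx1-null minus Runx1-WT on the log2 scale, after intensities below 19.3, the 20th percentile of all values, were set to that floor.

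DNA is copied in S phase, after a cell has committed to divide. In G1, the origin recognition complex with CDC6 and CDT1 loads the MCM ring onto DNA. CDC45 and the GINS complex turn it into an active helicase, after which primase and the polymerases, held to the template by the PCNA clamp, make the new strands. Transcription of most of these genes is driven by E2F factors as cells leave G1, so their mRNAs are abundant in populations with many cycling cells and scarce in resting tissue such as most of the virgin mammary epithelium.

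That shared control could be looked for in the promoters, whose sequences are shown for the 8 of these genes with an E2F sequence upstream of the start site. The forms TTTCCCGC, TTTGGCGC, TTTCGCGC and TTTGCCGC were searched on both strands in windows of 300 bases, from 250 before to 50 after each RefSeq start (GRCm38.p6). At least 1 was present in 13 of the 37 genes with a window in the table, or 35.1%, against 4.76% of the 9804 tested genes with a window and 2.6% of all 27025 genes there. The stretches upstream of the start are printed in the direction of transcription with every match in capitals, and overlapping matches make 1 longer run.
Mcm5, chr8:75109336-75109387, plus strand: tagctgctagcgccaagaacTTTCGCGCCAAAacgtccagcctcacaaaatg
Mcm6, chr1:128359725-128359835, minus strand: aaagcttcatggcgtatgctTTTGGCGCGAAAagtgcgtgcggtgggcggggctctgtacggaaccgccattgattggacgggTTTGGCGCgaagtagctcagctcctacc
Mcm7, chr5:138172021-138172068, minus strand: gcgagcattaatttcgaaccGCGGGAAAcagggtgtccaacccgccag
Orc1, chr4:108579407-108579453, plus strand: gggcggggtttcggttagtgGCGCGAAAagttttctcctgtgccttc
Cdc6, chr11:98907993-98908040, plus strand: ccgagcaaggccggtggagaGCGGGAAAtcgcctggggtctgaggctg
Gins3, chr8:95633498-95633545, plus strand: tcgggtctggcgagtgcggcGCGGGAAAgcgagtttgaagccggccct
Pola1, chrX:93632266-93632313, minus strand: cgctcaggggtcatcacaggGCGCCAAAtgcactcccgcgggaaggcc
Rfc3, chr5:151651209-151651238, minus strand: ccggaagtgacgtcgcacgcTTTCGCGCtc
In Mcm5 and Mcm6 a form on each strand overlaps the other, and Mcm6 holds another copy nearer the start. The other 5 holders, Mcm3, Cdt1, Lig1, Pold1 and Pole2, have their matches after the start. Among these holders the 12 that were tested had a median log2 SD within genotypes of 0.985, against 0.786 for the 23 tested genes with a window and no match, and the ranges overlapped, at 0.476 to 1.63 and 0.238 to 1.65. A sequence that RUNX proteins recognize, TGTGGT, was in 7 of the 37 windows, or 18.9%, against 14.7% of the tested genes and 18.9% of all genes. The 7 were Mcm3, Mcm10, Orc2, Orc6, Rfc1, Rrm1 and Tk1. A match is a sequence in a window and not a bound site.

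Runx1 itself had intensities of 3473, 4820.0 and 2277 in Runx1-null mice, against 4082, 3855 and 2015 in Runx1-WT mice, and 0 of its 6 probe sets separated the genotypes. Whether these probe sets lie in the deleted part of the gene was not tested, so they do not check the labels. By qRT-PCR, the paper reports loss of Runx1 expression in YFP+ cells sorted from females of this genotype. In their YFP+ mature luminal cells it reports only a slight reduction. Limma called 0 of 12152 genes at an adjusted p under 0.05 (0%) and gave 234 genes, or 1.93%, at an unadjusted p under 0.05. The median intensity of the arrays was 106.3 to 147.7 in Runx1-null and 129.1 to 163.4 in Runx1-WT mice. The 7 luminal markers, such as Krt8, Krt18 and Epcam, were bright on every array and their mean log2 level moved by no more than 0.11 from its mean over all mice. With 3 arrays a group, their number limits the precision.

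In these 42 genes the mice of a genotype differed more among themselves than the genotypes did from each other. Runx1-null mouse 1 and Runx1-WT mouse 3 had the 2 highest intensities in 39 of 42 genes, against 1791 of the 12152 genes tested. Averaged over the 42 genes, the log2 level relative to each gene's own mean was 1.01, -0.12 and -0.67 in Runx1-null mice, against -0.23, -0.78 and 0.79 in Runx1-WT mice. The highest value of all 6 mice was in Runx1-null mouse 1 for 32 genes and in Runx1-WT mouse 3 for 10. The lowest was in Runx1-WT mouse 2 for 22, in Runx1-null mouse 3 for 18 and in Runx1-WT mouse 1 for 2.

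**Figure D1:**
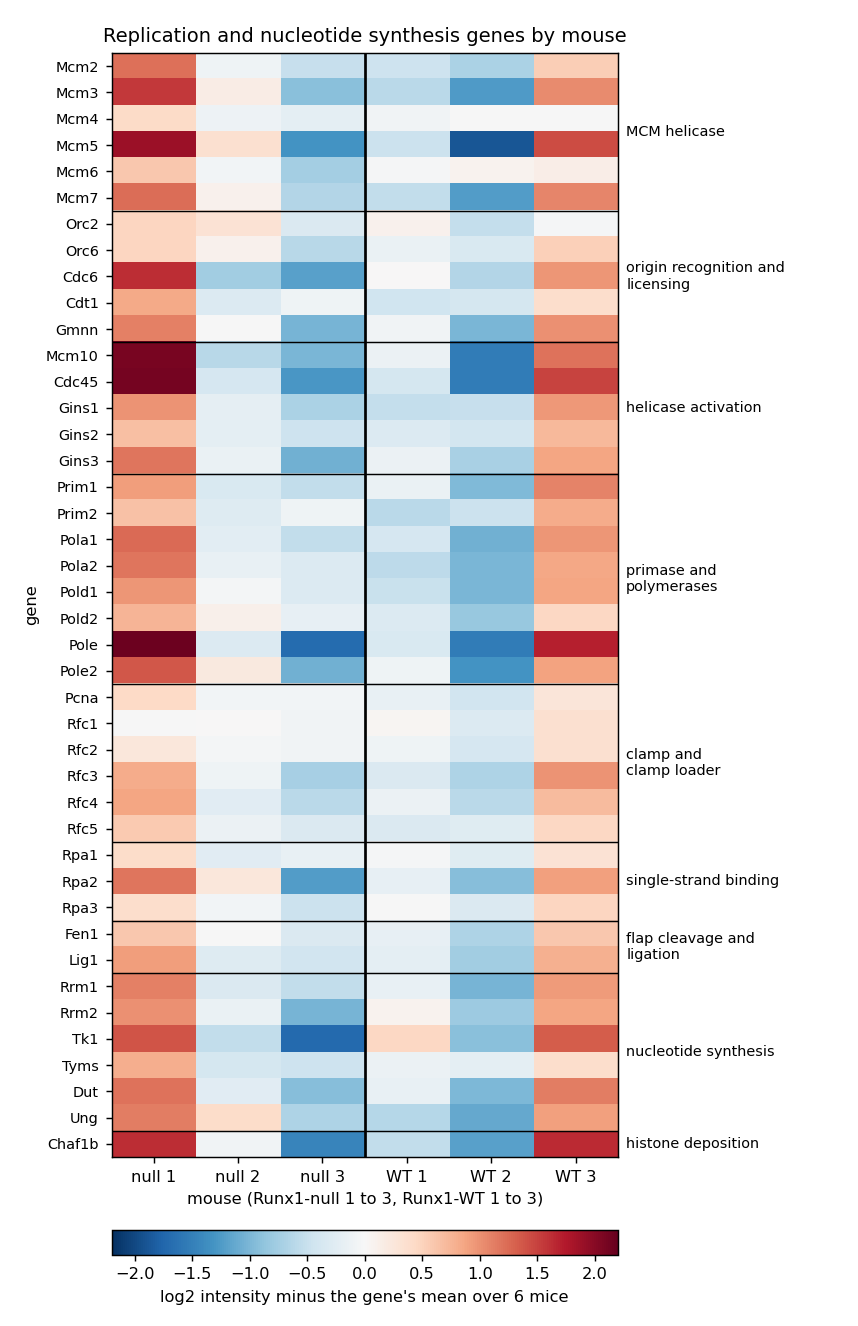
Log2 intensity of each of the 42 tested genes (rows, grouped by role) in each mouse (columns, Runx1-null at left), minus that gene's mean over 6 mice, on a red to blue scale. The columns of Runx1-null mouse 1 and Runx1-WT mouse 3 are red in nearly all rows, and those of Runx1-null mouse 3 and Runx1-WT mouse 2 are blue.

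The SD within genotypes had a median of 0.85 on the log2 scale over the 42 genes, against 0.27 over all genes tested. Of the 42, 40 were above that all-gene median, 35 above the 75th percentile of 0.44 and 25 above the 90th percentile of 0.74. In all 42 genes the size of the difference between genotypes was below the SD within them, as in 9702 of the 12152 genes tested. No gene of the 42 had an unadjusted p under 0.05 in limma's fit, where the background was 1.93%. The Runx1-null and Runx1-WT mice overlapped in each of the 42, where 2.08% of all genes had every Runx1-null mouse above every Runx1-WT mouse and 3.47% had every one below. The log2 differences ran from -0.58 (Tk1) to 0.61 (Mcm5), with a median of 0.10, 30 above 0 and 12 below, against a median of -0.02 over all genes. With quantile normalization the split was 36 above and 6 below, and with median scaling 37 and 5. All genes shifted upward too, with 6497 of 12152 above 0 under quantile normalization and 7860 under median scaling, against 5414 as deposited. The adjusted p of each of the 42 was at least 0.9997 by limma with Benjamini-Hochberg adjustment.

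**Figure D2:**
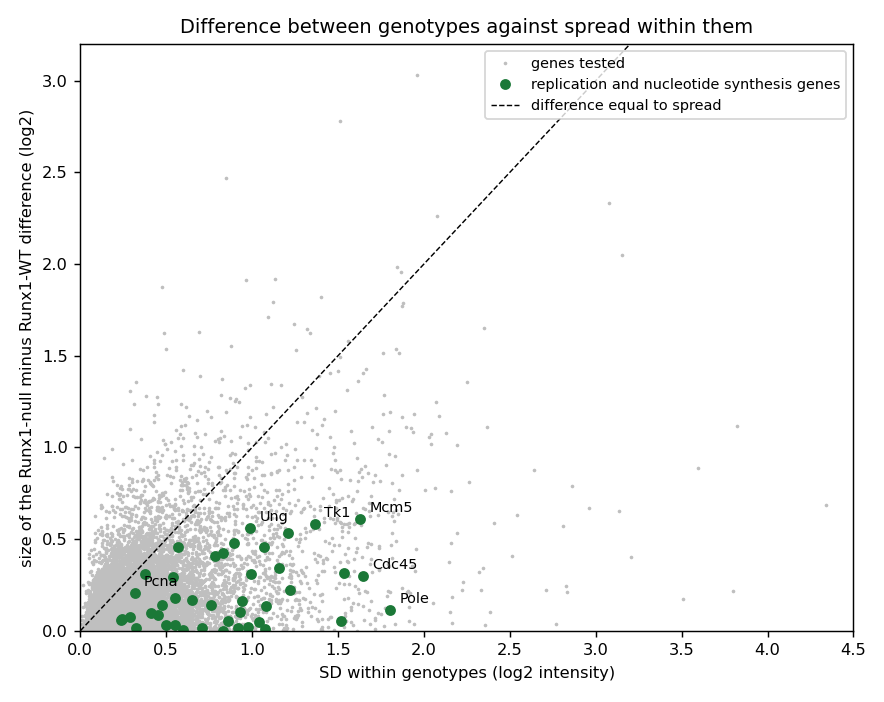
Size of the Runx1-null minus Runx1-WT difference (y axis, log2) against the SD within genotypes (x axis, log2) for the 12152 genes tested (grey) and the 42 replication and nucleotide synthesis genes (green). All 42 lie below the dashed line where both are equal, and most lie to the right of the bulk of genes, with Pole farthest at 1.80.

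MCM2 to MCM7 form the ring that unwinds DNA. Mcm5 had intensities of 1901, 662 and 207 in Runx1-null mice, against 373, 141 and 1398 in Runx1-WT mice, so mouse 1 of the Runx1-null group and mouse 3 of the Runx1-WT group stood far above the others and the groups overlapped. Within Runx1-null mice the highest was 9.18 times the lowest, and within Runx1-WT mice 9.91 times. The difference was 0.61 (standard error 1.03), with a 95% interval of -1.83 to 3.04. Its 2 other probe sets above the filter had the same 2 mice highest. Mcm3 was at 3179.9, 1218 and 572 in Runx1-null mice, against 716, 458 and 2237 in Runx1-WT mice, and Mcm2 at 1691, 686 and 518 in Runx1-null mice, against 533, 449 and 1069.6 in Runx1-WT mice. Their differences were 0.53 (standard error 0.77) and 0.41 (standard error 0.51). Mcm7 kept the same order of mice within each genotype as Mcm3.

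Mcm4 and Mcm6 encode subunits of the same ring but varied less. Mcm4 had intensities of 4850.5, 3373 and 3138 in Runx1-null mice, against 3432, 3619 and 3617 in Runx1-WT mice, and its Runx1-WT mice lay within 1.05-fold of each other. Mcm6 was at 4090.2, 2604 and 1622 in Runx1-null mice, against 2666, 2873 and 3012 in Runx1-WT mice, within 1.13-fold among the Runx1-WT mice and 2.52-fold among the Runx1-null mice. In these probe sets Runx1-null mouse 1 was highest in both genes and Runx1-null mouse 3 lowest, while Runx1-WT mouse 3 did not stand out in Mcm4. The differences were 0.06 (standard error 0.17) for Mcm4 and -0.14 (standard error 0.31) for Mcm6. Their SDs within genotypes were 0.24 and 0.48, against 1.63 for Mcm5. Both genes, like Mcm5 and Mcm7, were read from probe sets of a design in which some probes match other transcripts. A further probe set of Mcm4 was at 3805, 3375 and 2999 in Runx1-null mice, against 3459, 2898 and 3617 in Runx1-WT mice. There Runx1-null mouse 1 and Runx1-WT mouse 3 were the 2 highest and Runx1-WT mouse 2 the lowest. The narrow Runx1-WT range of Mcm4 was thus that of its brightest probe set. A further probe set of Mcm6, at 3868, 2253 and 1538 in Runx1-null mice, against 2464, 2443 and 2952 in Runx1-WT mice, varied to a like degree. Over the 6 MCM genes the median difference was 0.43, with 5 above 0 and 1 below. Without Runx1-null mouse 1 it was -0.12, with 0 above 0 and 6 below, and without Runx1-WT mouse 2 it was 0.00012, with 3 above and 3 below, while it was 0.83 with Runx1-null mouse 3 left out and 0.95 with Runx1-WT mouse 3 left out.

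**Figure D3:**
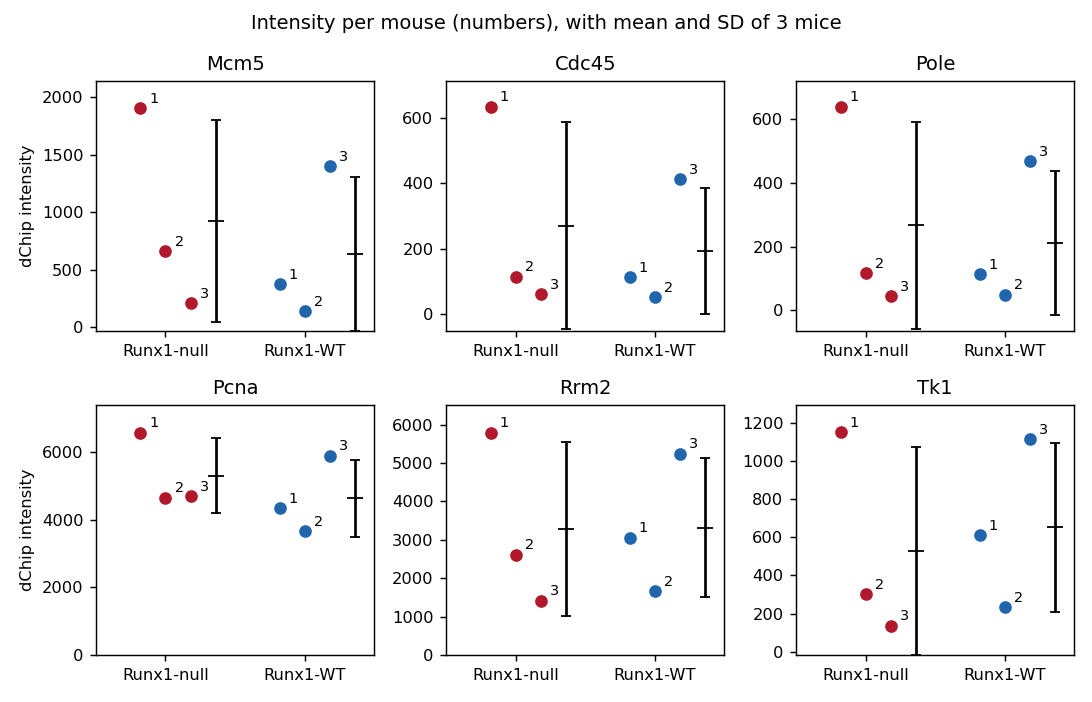
Intensity (linear y axis) of 6 genes in each mouse, numbered, with Runx1-null in red at left and Runx1-WT in blue at right and the mean and SD of 3 mice beside the points. In every panel Runx1-null mouse 1 and Runx1-WT mouse 3 are the 2 highest points, and the SD bars of the genotypes overlap.

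Among the genes that mark and license origins, the loader gene Cdc6 varied most. It had intensities of 578, 110.1 and 81.6 in Runx1-null mice, against 188, 119.9 and 365 in Runx1-WT mice, high in Runx1-null mouse 1 and Runx1-WT mouse 3 and lowest in Runx1-null mouse 3, and the groups overlapped. The difference was -0.22 (standard error 0.78). Cdt1, the partner of CDC6, was at 2231, 1012 and 1169 in Runx1-null mice, against 925, 954 and 1626 in Runx1-WT mice, with a difference of 0.29 (standard error 0.36). Gmnn, which encodes the CDT1 inhibitor geminin, was at 2484, 1142 and 562 in Runx1-null mice, against 1091, 574 and 2305 in Runx1-WT mice. Its difference of 0.05 (standard error 0.66) was small beside an SD within genotypes of 1.04. Orc1, the origin recognition subunit that is made in G1, was too dim to test, with 152, 47.0 and 9.3 in Runx1-null mice, against 35.7, 8.67 and 85.7 in Runx1-WT mice, yet it was highest in the same 2 mice. Orc2 and Orc6 spanned no more than 2.11-fold within a genotype.

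CDC45 and the GINS complex bind the loaded ring, and MCM10 helps to switch it on. Cdc45 had intensities of 634, 114 and 60.4 in Runx1-null mice, against 113, 50.5 and 413 in Runx1-WT mice. The highest Runx1-null mouse was 10.5 times the lowest and the highest Runx1-WT mouse 8.17 times, while the genotypes differed by 0.30 (standard error 1.05). A dimmer probe set of Cdc45, at 119, 68.6 and 89.0 in Runx1-null mice, against 87.3, 101 and 68.2 in Runx1-WT mice, did not show the pattern. Gins2 was at 1149, 632 and 534 in Runx1-null mice, against 594, 552 and 1191 in Runx1-WT mice, nearly the same in both genotypes by mean (772 ± 330.0 in Runx1-null and 779 ± 358 in Runx1-WT mice (SD, n = 3 each)), with a difference of 0.00 (standard error 0.40). The other genes of this step, Gins1, Gins3 and Mcm10, also had their highest values in Runx1-null mouse 1 and Runx1-WT mouse 3, and their differences ran from -0.02 to 0.32.

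Primase and the replicative polymerases were the only role of those with over 2 genes in which every gene lay above 0, by 0.02 to 0.48, as helicase activation did too under both other scalings and the clamp genes under median scaling. This rested on single mice, as 5 of the 8 lay below 0 without Runx1-null mouse 1 (median -0.17) or without Runx1-WT mouse 2 (median -0.08) and 3 of the 8 without Runx1-WT mouse 1 (median 0.24), against a median of 0.33 with all mice. The median was 0.67 with Runx1-null mouse 3 left out and 0.87 with Runx1-WT mouse 3 left out. Pole, the catalytic subunit of the leading-strand polymerase, had the widest spread of all 42 genes. It had intensities of 639, 117 and 44.3 in Runx1-null mice, against 114, 49.1 and 468 in Runx1-WT mice, and the highest mouse was 14.4 times the lowest among Runx1-null and 9.55 times among Runx1-WT mice. Its difference was 0.11 (standard error 1.14), with a 95% interval of -2.60 to 2.82, so neither direction nor equality was resolved. Pola1, the catalytic subunit of polymerase alpha, was at 1563, 562 and 453 in Runx1-null mice, against 509, 317 and 1294 in Runx1-WT mice, with a difference of 0.31 (standard error 0.64). Prim1, which makes the RNA primer, was at 2447, 1028 and 891 in Runx1-null mice, against 1176, 666 and 2763 in Runx1-WT mice, with a difference of 0.02 (standard error 0.59). In all 8 genes the same 2 mice were highest. Polymerase delta subunits had differences of 0.43 (standard error 0.54) for Pold1 and 0.45 (standard error 0.39) for Pold2, and Pold2 had the smallest unadjusted p of the 42 genes, 0.28 (limma's fit, adjusted p = 0.9997).

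The PCNA ring clamps the polymerases to DNA and the RFC complex loads it. Pcna had intensities of 6569, 4643 and 4683 in Runx1-null mice, against 4333, 3653 and 5885 in Runx1-WT mice, a range of 1.42-fold within Runx1-null and 1.61-fold within Runx1-WT mice. The mean was 5298 ± 1101 in Runx1-null and 4623 ± 1144 in Runx1-WT mice (SD, n = 3 each), and the difference 0.21 (standard error 0.21), with a 95% interval of -0.29 to 0.70. Rfc3 was at 918, 486 and 313 in Runx1-null mice, against 418, 325 and 1033 in Runx1-WT mice, with a difference of 0.00 (standard error 0.54). Rfc1, the largest RFC subunit, was at 2095, 2128 and 1999.6 in Runx1-null mice, against 2174, 1713 and 2717 in Runx1-WT mice, the only gene of the 42 in which Runx1-null mouse 1 was not the highest Runx1-null mouse. Rfc2 was at 1903, 1559.8 and 1518 in Runx1-null mice, against 1507, 1243 and 2066 in Runx1-WT mice. Both had among the smallest SDs within genotypes, 0.24 and 0.29, close to the all-gene median of 0.27.

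RPA coats single-stranded DNA, and its 3 subunit genes differed in spread. Rpa2 had intensities of 2828, 1492 and 532 in Runx1-null mice, against 1104, 654 and 2335 in Runx1-WT mice, 5.31 times between highest and lowest among Runx1-null mice. Rpa1 and Rpa3 spanned 1.57-fold and 1.81-fold there. The difference of Rpa2 was 0.14 (standard error 0.68), and its other probe set gave -0.09. Fen1, which trims the flaps of lagging-strand fragments, was at 4810.1, 3200.3 and 2588 in Runx1-null mice, against 2822, 2009.8 and 4824 in Runx1-WT mice, and the ligase gene Lig1 at 2277, 996 and 902 in Runx1-null mice, against 1039.8, 708 and 2084 in Runx1-WT mice. Both had the usual 2 mice highest and differences of 0.18 (standard error 0.36) and 0.14 (standard error 0.49).

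Ribonucleotide reductase makes deoxynucleotides, and its subunit genes Rrm1 and Rrm2 followed the same mice. Rrm2, the subunit made in S phase, had intensities of 5797, 2612 and 1411 in Runx1-null mice, against 3049.9, 1656 and 5244 in Runx1-WT mice, with a difference of -0.10 (standard error 0.59). Rrm1 was at 2391, 893 and 761 in Runx1-null mice, against 992, 547 and 2132 in Runx1-WT mice, with a difference of 0.16 (standard error 0.60). Tk1, the salvage kinase for thymidine, had the lowest difference of the 42 genes. It was at 1149, 302 and 136 in Runx1-null mice, against 609, 233 and 1112 in Runx1-WT mice, so that its mean was 529 ± 544 in Runx1-null and 651 ± 441 in Runx1-WT mice (SD, n = 3 each), with a difference of -0.58 (standard error 0.86) and a 95% interval of -2.63 to 1.47. Runx1-WT mouse 1, which was near or below the mean in most other genes, was above its gene mean in Tk1 and in 4 further genes.

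Tyms, which makes thymidylate, was dim, at 189.9, 83.1 and 79.8 in Runx1-null mice, against 99.8, 94.0 and 143 in Runx1-WT mice. Dut, whose product removes dUTP, was at 3337, 1238 and 766 in Runx1-null mice, against 1309.7, 739 and 3209 in Runx1-WT mice, and Ung, whose product cuts uracil out of DNA, at 2808, 1702 and 800.4 in Runx1-null mice, against 837, 588 and 2419 in Runx1-WT mice. The differences of these 3 were -0.03 (standard error 0.42), 0.01 (standard error 0.68) and 0.56 (standard error 0.63). In Ung, Runx1-null mouse 2 was also above Runx1-WT mice 1 and 2, and the groups overlapped through Runx1-null mouse 3 and Runx1-WT mouse 3. Chaf1b, a subunit of the factor that places histones on new DNA, was at 480.4, 147 and 56.8 in Runx1-null mice, against 108, 68.4 and 490.2 in Runx1-WT mice, 8.46 times between highest and lowest among Runx1-null mice, with a difference of 0.05 (standard error 0.97).

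Which mice entered the comparison set the direction of the median difference. Orc2, Pcna, Pola2, Pold1, Pold2 and Ung stayed above 0 whichever mouse was left out, though Pola2 was only at 0.009 without Runx1-null mouse 1. All of these were below 0 when mouse 3 of each genotype was compared alone. How many of all genes kept their sign in this way was not counted. Without Runx1-null mouse 1 the median difference of the 42 genes was -0.28, with 6 above 0 and 36 below, and without Runx1-WT mouse 3 it was 0.56, with 40 above and 2 below. Leaving out Runx1-null mouse 3 gave 0.41 and Runx1-WT mouse 2 -0.20, while Runx1-null mouse 2 and Runx1-WT mouse 1 gave 0.18 and 0.03. With both highest mice left out, a choice made after seeing the data, the median was 0.09, with 29 above 0 and 13 below. In those 4 mice both Runx1-null mice lay above both Runx1-WT mice in 7 genes, where the share over all genes was 17.5%, and below in 4, where it was 16.9%. The 7 were Cdt1, Pcna, Pola2, Pold1, Pold2, Prim2 and Rfc2, and the 4 were Cdc6, Mcm4, Mcm6 and Tyms, all named after their values were seen. The same 4 lay below every Runx1-WT mouse without Runx1-null mouse 1 alone, where 5.98% of all genes did, and the same 7 lay above every Runx1-WT mouse without Runx1-WT mouse 3 alone, where 12.4% did. This recurrence nearly follows from the first choice and adds no support. Runx1-null mouse 1 was the highest Runx1-null mouse in 41 of the 42 genes, and Runx1-WT mouse 3 the highest Runx1-WT mouse in 40. Orc2 lay above without Runx1-null mouse 3, where 9.69% of all genes did, and Rfc1 below without Runx1-WT mouse 2, where 9.87% did.

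The animal numbers fall into a lower range, with mice 1 and 2 of each genotype, and an upper range, with mouse 3 of each. The paper's methods call the sorted mice littermates, but litters are not labelled, and what the ranges stand for is not known. In the lower range the difference was above 0 in 42 of 42 genes, with a median of 0.85, against 6286 of all 12152. In the upper range, with 1 mouse against 1, it was below 0 in 42 of 42, with a median of -1.39. There 7196 of all 12152 genes were below 0. Both Runx1-null mice of the lower range were above both Runx1-WT mice in 26 genes, where the share over all genes was 26.1%, and below in 0, where it was 24.5%. Limma's fit on those 4 mice gave 13 of the 42 at an unadjusted p under 0.05, all higher in Runx1-null mice, where 7.75% of all genes were, and 0 at an adjusted p under 0.05. Ung was at the head of these, with a difference of 1.64 (unadjusted p = 0.0029 and adjusted p = 0.27 in limma's fit), and -1.60 in the upper range. For Mcm5 the lower range gave 2.29 and the upper range -2.75. The 42 genes thus pointed in opposite directions in the 2 ranges, but they moved together by mouse and are not 42 separate observations. The upper range has no replicate. The lower range leaves out Runx1-WT mouse 3, the highest Runx1-WT mouse in 40 of the 42 genes. It also leaves out Runx1-null mouse 3, the lowest of all 6 mice in 18. Higher values in its Runx1-null mice thus nearly follow from which mice remain and add no support.

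**Figure D4:**
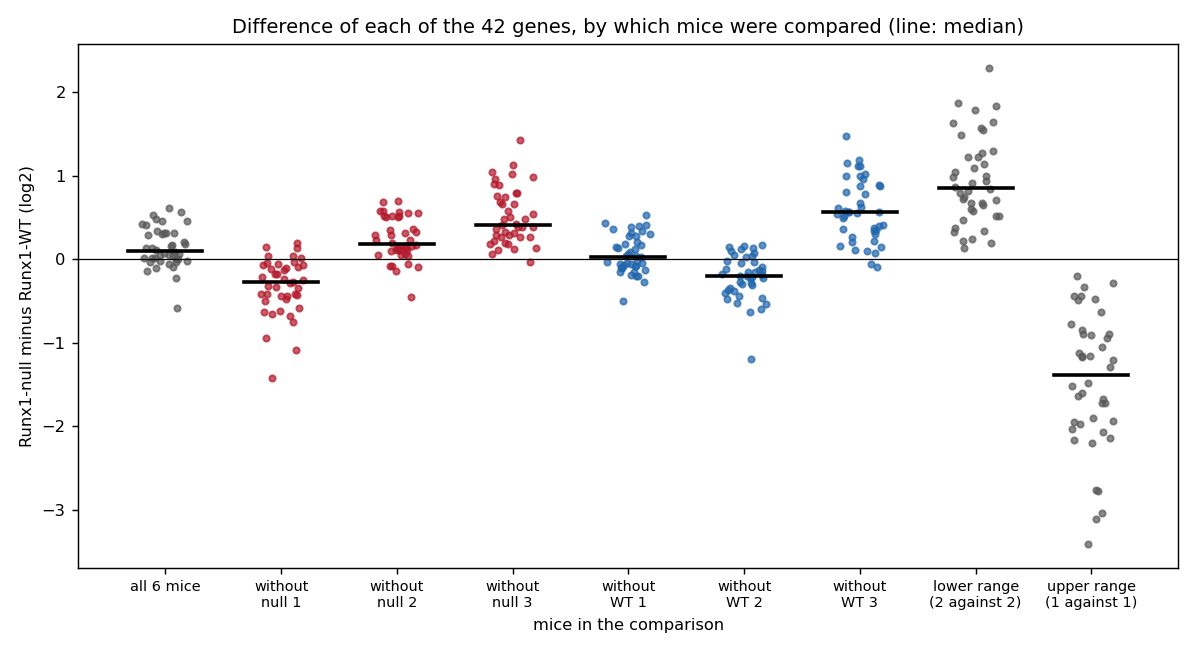
Runx1-null minus Runx1-WT difference (y axis, log2) of each of the 42 genes (points) and their median (line), with all mice, without each mouse in turn and within each range of animal numbers. The medians run from -1.39 to 0.85 and lie on both sides of 0.

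Other genes of the cell cycle showed how far the pattern reached. Of 36 further replication factors, 35 were tested, with a median difference of 0.08 and 21 in which Runx1-null mouse 1 and Runx1-WT mouse 3 were the 2 highest. Clspn, which encodes the fork protein claspin, was at 699, 119 and 29.5 in Runx1-null mice, against 167, 41.5 and 488 in Runx1-WT mice, and Hells, a chromatin remodeler, at 1902, 590.0 and 94.2 in Runx1-null mice, against 352, 143 and 916 in Runx1-WT mice. By contrast Rbbp4, a histone-binding subunit shared by many complexes, was at 11587, 12167 and 12055 in Runx1-null mice, against 12640.5, 11553 and 12406 in Runx1-WT mice. Of 22 further nucleotide supply genes 20 were tested, with a median difference of 0.14 and 6 with those 2 mice highest. Their levels relative to their own means were 0.23, 0.15 and -0.17 in Runx1-null mice, against -0.10, -0.26 and 0.15 in Runx1-WT mice, a narrower range than that of the 42 genes. In neither of these lists did a gene pass the adjusted test. In 1 gene the groups did not overlap, where 2.08% of all genes lay higher and 3.47% lower in every Runx1-null mouse. It was Cad, which starts pyrimidine synthesis and was at 967, 920.4 and 1114 in Runx1-null mice, against 894, 902 and 757 in Runx1-WT mice.

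The mitosis genes were tested in 23 of 24 cases and shared the 2 highest mice in 21, but differed in the other mice. Their mean relative level was 1.65, -1.18 and -1.65 in Runx1-null mice, against 0.75, -0.73 and 1.16 in Runx1-WT mice. Mki67, the proliferation antigen, had intensities of 1026, 101 and 63.2 in Runx1-null mice, against 539, 126 and 712 in Runx1-WT mice, and Top2a, the topoisomerase that untangles chromosomes, was at 4285, 949 and 417 in Runx1-null mice, against 3153, 1146 and 3739 in Runx1-WT mice. Runx1-WT mouse 1 was thus high in these genes and not in the replication genes, while Runx1-null mice 2 and 3 and Runx1-WT mouse 2 were low. The median difference was -0.84, with 1 above 0 and 22 below, and the differences of Mki67 and Top2a were -0.96 (standard error 1.13) and -0.999 (standard error 0.86). None of the 23 had an unadjusted p under 0.05 in limma's fit, and their median SD within genotypes was 1.604. With quantile normalization and median scaling the median was -0.71 and -0.75, and without each mouse in turn it ran from -1.92 (without Runx1-null mouse 1) to -0.14 (without Runx1-null mouse 3), and leaving out Runx1-WT mouse 2 gave -1.53, Runx1-null mouse 2 gave -0.43 and Runx1-WT mouse 3 gave -0.39. It was 0.30 in the lower range and -3.17 in the upper range. No probe set matched Ccnb1, which is not analysed here.

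The promoters of the mitosis genes were searched for the CHR and the CCAAT box, which are known from promoters of such genes, and for the E2F forms. Shown are 3 picked genes that hold both of the first upstream of the start, with every match in the printed stretch in capitals. Other mitosis genes that hold both are not shown, nor is a further CHR of Ccnb2 after the start. The E2F forms were in 1 of 19 mitosis windows, or 5.26%, and that 1 is Cdk1, shown here, where the match reads TTTCGCGC. The CHR, TTTGAA on either strand, was in 73.7% of them against 13.5% of the 37 windows of the replication and nucleotide synthesis genes and 14.2% of the tested genes. The CCAAT box, on either strand, was in 84.2% against 62.2% and 42.7%.
Cdc20, chr4:118437344-118437416, minus strand: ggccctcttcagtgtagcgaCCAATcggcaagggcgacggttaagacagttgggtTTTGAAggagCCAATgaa
Ccnb2, chr9:70421555-70421741, minus strand: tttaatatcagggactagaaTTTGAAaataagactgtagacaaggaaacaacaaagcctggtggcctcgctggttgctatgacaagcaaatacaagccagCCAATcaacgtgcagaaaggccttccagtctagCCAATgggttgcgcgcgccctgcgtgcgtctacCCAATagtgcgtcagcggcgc
Cdk1, chr10:69352913-69353140, minus strand: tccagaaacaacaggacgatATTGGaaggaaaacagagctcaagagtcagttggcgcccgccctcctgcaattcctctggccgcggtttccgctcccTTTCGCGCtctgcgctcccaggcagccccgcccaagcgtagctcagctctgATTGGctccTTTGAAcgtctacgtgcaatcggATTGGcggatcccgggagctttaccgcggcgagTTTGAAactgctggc
These genes had intensities of 1173, 199.8 and 178 in Runx1-null mice, against 644, 279 and 1017 in Runx1-WT mice for the activator of the anaphase ligase Cdc20. Ccnb2, a mitotic cyclin, was at 1212, 107 and 95.1 in Runx1-null mice, against 813, 265 and 1062 in Runx1-WT mice. Cdk1, the kinase it binds, was at 3307, 669.8 and 211 in Runx1-null mice, against 1865, 558 and 2923 in Runx1-WT mice. In each, Runx1-WT mouse 1 was closer to the 2 highest mice than in Mcm5 or Pole.

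The 24 genes of G1/S control had a median difference of -0.01, with 12 above 0 and 12 below, and a median SD within genotypes of 0.45. E2f1, an activating E2F and itself an E2F target, was at 709.9, 213 and 49.96 in Runx1-null mice, against 103, 42.7 and 449 in Runx1-WT mice, high in the same 2 mice, with a difference of 0.65 (standard error 1.15). Cdkn1a, which encodes the CDK inhibitor p21, was at 3993, 4504 and 4959 in Runx1-null mice, against 3849.7, 4667 and 2986 in Runx1-WT mice. Within each genotype it was lowest in the mouse highest in the replication genes, though Runx1-WT mouse 1 lay below Runx1-null mouse 1. The difference of Cdkn1a was 0.24 (standard error 0.18).

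**Figure D5:**
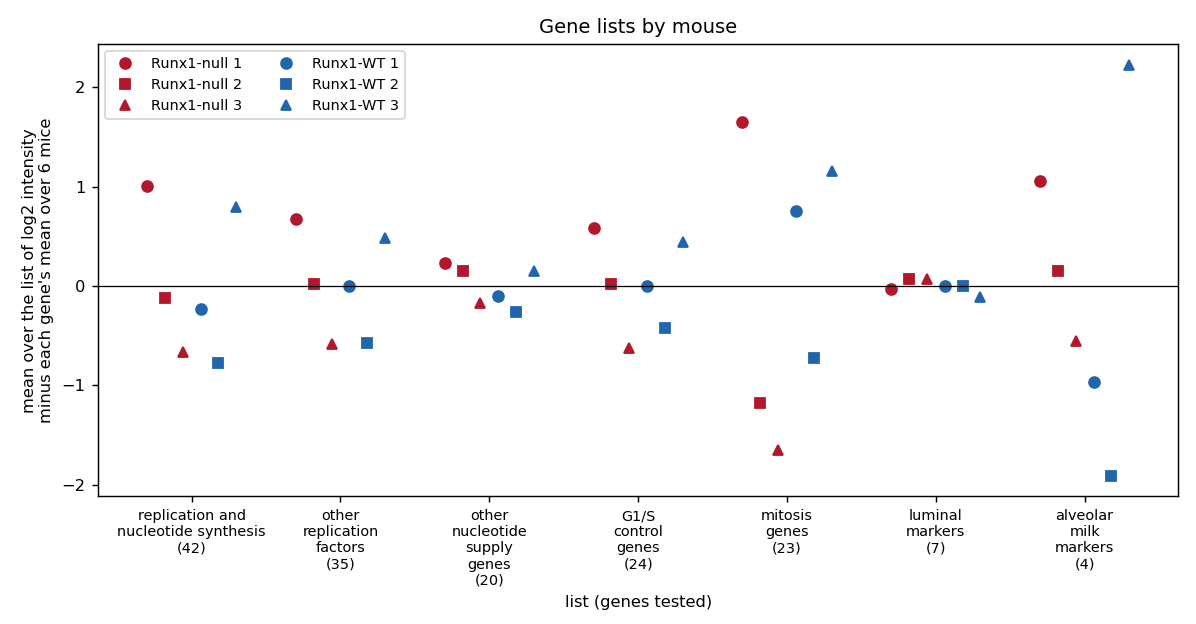
Mean over each gene list of the log2 intensity minus each gene's mean over 6 mice (y axis), 1 point a mouse, with Runx1-null in red and Runx1-WT in blue. The 42 replication and nucleotide synthesis genes span -0.78 to 1.01, the mitosis genes -1.65 to 1.65 and the luminal markers -0.11 to 0.07.

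Markers of other cells and states moved with some of the same mice. Of 9 mature luminal markers 6 had a probe set, and Esr1 and Pgr, the estrogen and progesterone receptor genes, had their 2 lowest values in the 2 mice that were highest in the replication genes. Esr1 was at 3593, 4345 and 5399 in Runx1-null mice, against 6067, 6271 and 3055 in Runx1-WT mice, and Pgr at 2906, 5641 and 7128 in Runx1-null mice, against 5145, 5978 and 2865 in Runx1-WT mice. Tnfsf11, which encodes the cytokine RANKL, was instead highest in those 2 mice, at 337, 134 and 28.8 in Runx1-null mice, against 9.67, 6.87 and 4980.0 in Runx1-WT mice. Foxa1, Cited1 and Wnt4 had their 2 lowest values among Runx1-null mice. Their differences were -0.31 (standard error 0.13), -1.17 (standard error 0.40) and -0.93 (standard error 0.32), each with an adjusted p of 0.9997 in limma's fit. The unadjusted p of that fit were 0.047, 0.023 and 0.024. Thus 3 of the 6 mature luminal markers were under 0.05 before adjustment, where 1.93% of all genes were. Cited1 was lowest in Runx1-null mouse 3. In Wnt4 every Runx1-null mouse lay below every Runx1-WT mouse, where 3.47% of all genes did. The 6 mature luminal markers summed to 13994, 19863 and 20690.1 in Runx1-null mice, against 25897, 25611 and 21885 in Runx1-WT mice, lowest in Runx1-null mouse 1 and, among Runx1-WT mice, in mouse 3. The 5 luminal progenitor markers summed to 22019.5, 24271 and 24271 in Runx1-null mice, against 21655, 16693 and 23204 in Runx1-WT mice, lowest in Runx1-WT mouse 2. The summed intensity of the 6 milk protein genes was 13866, 12251 and 13403 in Runx1-null mice, against 12572, 12137 and 18346 in Runx1-WT mice, highest in Runx1-WT mouse 3 and next in Runx1-null mouse 1. Csn2, encoding beta-casein, was at 365, 231 and 57.3 in Runx1-null mice, against 20.6, 4.31 and 3119 in Runx1-WT mice. Of 12 leukocyte markers 11 had a probe set and 6 passed the filter, and the sum of the 11 was 2663, 1589 and 2179.5 in Runx1-null mice, against 1496, 1536 and 7991 in Runx1-WT mice, high in Runx1-WT mouse 3 alone. Ptprc, the pan-leukocyte antigen, was at 47.4, 18.3 and 33.8 in Runx1-null mice, against 24.8, 24.8 and 205 in Runx1-WT mice. The 9 basal markers summed to 13135, 12846 and 4792 in Runx1-null mice, against 6624, 4979 and 10743 in Runx1-WT mice, and the 6 fibroblast markers to 10675, 12127 and 4581 in Runx1-null mice, against 13641, 13062 and 11608 in Runx1-WT mice, lowest in Runx1-null mouse 3. The 7 endothelial markers summed to 679.5, 945 and 1261 in Runx1-null mice, against 1574, 1512 and 1289 in Runx1-WT mice. The sum of the 3 adipocyte markers was lowest in Runx1-null mouse 2, and the sum of the 2 erythroid markers was no more than 129 on any array. No marker of these lists other than Hba-a1, an alpha-globin gene, was below the floor on all arrays. The part of these cells and states in the levels of the replication genes was not tested, and fewer cycling cells and less RNA per cell cannot be told apart in sorted bulk RNA. The beta-actin control probe sets at the 3′ and 5′ ends of its mRNA differed on the log2 scale by 0.52, 0.44 and 0.74 in Runx1-null mice, against 0.51, 0.52 and 0.50 in Runx1-WT mice. The gap was widest in Runx1-null mouse 3, where 18 of the 42 genes had their lowest value. In Runx1-WT mouse 2, where 22 had theirs, it was 0.52. The part of RNA quality in these levels was not tested.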

How the data were processed

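RNA of YFP+ luminal mammary epithelial cells from 3 Runx1-null and 3 Runx1-WT mice was measured on Affymetrix Mouse Genome 430 2.0 arrays, 1 per mouse. The authors amplified the RNA with NuGEN Ovation V2 and deposited linear intensities normalized across all arrays with dChip, whose version and model are not given in the sources used here. Probe sets (45101) were paired with genes by the platform annotation and RefSeq: 34958 had 1 symbol, 932 several and 9211 none here, and only the first kind was used. The 20th percentile of all values (19.335) served as a floor before log2, the brightest probe set stood for its gene, and the 12152 genes whose mean reached the 40th percentile of all probe sets (73.5) entered limma 3.58.1 in R 4.3.3 (lmFit, then eBayes with a trend). Genes were called at a Benjamini-Hochberg adjusted p under 0.05 over all of them. Litters are not labelled, so no pairing entered. The code was tested on simulated data.

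The members and the other lists were chosen with earlier results of these data known. Named are 23 members fixed by role, any member whose groups do not overlap, the 3 highest and lowest differences, the 3 largest and smallest SDs, and Mki67, Top2a, Ccnb1, E2f1 and Cdkn1a. Promoters are RefSeq windows of GRCm38.p6. Alternatives covered the filter, normalization, floor, probe set rule, test, block and each mouse left out.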

Additional observations from a re-analysis of the deposited data

How the results depend on the processing

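The count of genes called stayed at 0 under every alternative of the filter, normalization, floor, probe set rule, variance model, block and threshold and without each mouse, except that the methods' t-test called 335 at its own threshold of 0.05 and 0 once adjusted by Benjamini-Hochberg. The count of members called was 0 under all of them. The median log2 difference of the 42 members was 0.10, and -0.28 to 0.56 without each mouse in turn. Within the upper range of animal numbers, an alternative chosen after seeing the data, it was -1.39. The median SD within genotypes was 0.85, 0.70 to 0.97 without each mouse, and 0.365 without both highest mice, where it was 0.21 over all genes. Members whose groups do not overlap numbered 0, where 2.08% of all genes lay higher and 3.47% lower in Runx1-null mice. Without each mouse they numbered 0 to 7, and the 7 lay higher without Runx1-WT mouse 3, where 12.4% of all genes did. They were 11 without both highest mice, where 17.5% of all genes lay higher and 16.9% lower in Runx1-null mice. In the lower range they were 26, all higher, where 26.1% of all genes lay higher and 24.5% lower. Both of these compare 2 mice with 2, and in the lower range the direction nearly follows from which mice remain.

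Under the alternatives that can change a difference, which leaves out the filter and the block, 211 values of the named members kept their direction and 59 turned it. Quantile normalization turned Gins2 (0.0839), Rfc3 (0.103) and Tyms (0.0727). Median scaling turned Gins2 (0.0887), Rfc3 (0.0895), Tyms (0.0599) and Rfc1 (0.0304), and the mean over probe sets turned Gins2 (0.0128). Leaving out each mouse in turn, the log2 differences ran from -0.68 to 1.115 for Cdc45, -1.09 to 0.32 for Cdc6, -0.0524 to 0.56 for Cdt1, -0.75 to 0.89 for Chaf1b, -0.58 to 0.58 for Dut. Ranges were -0.11 to 0.52 for Fen1, -0.33 to 0.35 for Gins2, -0.50 to 0.58 for Gmnn, -0.28 to 0.57 for Lig1, -0.0919 to 0.79 for Mcm2. They ran from -0.11 to 1.19 for Mcm3, -0.13 to 0.19 for Mcm4, -0.18 to 1.48 for Mcm5, -0.47 to 0.20 for Mcm6, -0.23 to 0.87 for Pola1. Values were -0.94 to 0.995 for Pole, -0.46 to 0.56 for Prim1, -0.23 to 0.10 for Rfc1, -0.10 to 0.27 for Rfc2, -0.41 to 0.49 for Rfc3. In that setting they were -0.42 to 0.79 for Rpa2, -0.35 to 0.67 for Rrm1, -0.63 to 0.38 for Rrm2, -1.42 to 0.13 for Tk1, -0.44 to 0.19 for Tyms. Pcna, at 0.04 to 0.39, and Ung, at 0.14 to 1.16, did not turn there, but in the upper range they were at -0.33 and -1.60. None of these differences passed the adjusted test of limma in any setting. The number of arrays limits the precision of every value. The paper's methods call the mice littermates, but no paired analysis was possible because the labels do not say which of them shared a litter. When the 2 ranges of animal numbers entered as a block, 0 genes passed the adjusted test and 305 had an unadjusted p under 0.05, of which 0 were members, against 234 without it. The cause of these turns was not tested beyond the mice left out.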

Other observations

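Within a role, members differed in how far they varied between mice. In the MCM ring the SD within genotypes was 1.63 for Mcm5 and 0.24 for Mcm4 on the log2 scale, among the polymerases 1.80 for Pole and 0.57 for Pold2, and in the RPA complex 1.08 for Rpa2 and 0.33 for Rpa1. The wide and the narrow members shared the mouse with the highest value in each of these pairs, Runx1-null mouse 1. Several probe sets were above the filter for 26 members, 63 in all. In 22 of the 26 they shared the 2 highest mice, and in 20 the sign of the difference, the others being Gins2, Gins3, Prim1, Rfc1, Rpa2 and Rrm1. Of the 79 member probe sets above the filter, 75 had Runx1-null mouse 1 and Runx1-WT mouse 3 highest.

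The brightest probe set of 7 members was of the kind in which some probes match other transcripts, and of 3 members of the kind whose probes all match several transcripts, by the array's naming of probe sets.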
